A study of Homo sapiens with 6 samples.

Results

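The core spliceosome proteins described here are 45 genes that encode the Sm and LSM rings, the proteins specific to the U1, U2 and U5 particles, the factors that read the 3′ splice site, and proteins of the PRP19 complex and the catalytic step, among them BUD31. The members were given by gene symbol, by their known part in splicing, under a rule that contains no measured value, although the set was drawn up with earlier results of these data known. Each of the 45 symbols matched 1 of the 60651 gene identifiers in the count files, and all 45 were among the 29086 genes that passed the filter of at least 10 counts in at least 3 libraries.

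The spliceosome removes introns from pre-messenger RNA. It assembles on each intron from small nuclear ribonucleoproteins (snRNPs), particles of a short nuclear RNA and proteins. The U1 snRNP pairs with the 5′ splice site, the U2 snRNP binds the branch point with the help of factors on the 3′ splice site, and a tri-snRNP of U4, U6 and U5 then joins. After the PRP19 complex has stabilized the rearranged particle, the catalytic core cuts and joins the RNA. MYC-family transcription factors are known for raising the output of genes that growing cells need, and cells driven by MYC have been described as sensitive to the loss of core splicing factors, BUD31 and SF3B1 among them.

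RNA came from SK-N-AS, an established human neuroblastoma cell line without MYCN amplification, in which a tetracycline repressor system (pcDNA6TR) makes MYCN expression inducible. The cells were single clones kept in G418 (500 µg/ml) and blasticidin (5 µg/ml), so every library carries both selections. The 3 control libraries are titled ETOH at 120 h and carry the label Control, and the 3 MYCN-induced libraries are titled Tet at 120 h and received tetracycline for 5 d. The comparison asks what 5 d of MYCN expression changed. Cells without the MYCN construct that received tetracycline were not analysed here, so an effect of MYCN and an effect of tetracycline cannot be told apart. Ribosomal RNA was depleted and total RNA was sequenced. Values are CPM, counts scaled to a common library total after TMM normalization, and log2 fold changes are MYCN-induced over control with their standard errors (SE) from edgeR's quasi-likelihood test, adjusted by Benjamini-Hochberg over all 29086 genes.

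MYCN itself measured 30.3, 35.5 and 32.4 CPM in control replicates 1, 2 and 3 and 210.7, 221.3 and 198.6 CPM in MYCN-induced replicates 1, 2 and 3. The 2 groups were far apart, with a log2 fold change of 2.68 ± 0.09 (SE, n = 3 against 3, adjusted p = 4.2e-05). Libraries held between 64500589 and 102249336 counts. MYCN-induced replicate 3 stood apart from the other 5 on the first principal component, at 69.1 where MYCN-induced replicates 1 and 2 lay at 14.4 and 13.1 and the controls between -40.3 and -25.9. Of 10 adrenergic neuroblastoma markers, 9 measured at least 1 TPM (counts scaled by exon length and library total) in every library, with summed levels of 600.2 to 719.4 TPM in controls and 518.8 to 671.7 TPM in MYCN-induced libraries. Of 8 mesenchymal markers, 6 did so and CD44 was listed at 0 in every library for a reason that was not found, with sums of 141.7 to 161.2 TPM and 185.2 to 196.4 TPM. The 10 markers of other cell types summed to at most 1.25 TPM in any library, and CD3E was listed at 0.

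Across the 45 core spliceosome genes, MYCN induction went with small differences, most of them upward. BUD31 was the only member whose rise passed the test, at 1.44-fold, and no member fell past it. Thus 1 of 45 members (2.22%) was called higher, beside 298 of all 29086 genes (1.02%), and 0 of 45 was called lower, beside 692 genes (2.38%). By DESeq2, BUD31 and BCAS2 were called higher (4.44%, beside 3.11% of all genes) and again no member lower (beside 4.12%). Fold changes of 37 of the 45 members lay above 0 (82.2%), beside 49.9% of all genes tested and 58.5% of the 11789 protein-coding genes of at least 1 TPM. Of those protein-coding genes, edgeR called 1.69% higher and 2.44% lower. On the log2 scale the members had a median change of 0.12, beside 0.00 over all genes tested and 0.04 over those protein-coding genes. In a bulk library, a change in RNA per cell and a change in the mix of cells cannot be told apart, and the spike-in sequences held no counts, so these values are shares of each library and not amounts per cell.

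At an unadjusted p under 0.05, 7 members were higher (15.6%, beside 8.13% of all genes) and SF3B3 alone was lower (2.22%, beside 10.6%). In 11 members all 3 MYCN-induced libraries lay above all 3 controls (24.4%, beside 11.5% of all genes), and in 2 members, SF3B1 and SF3B3, all lay below (4.44%, beside 14.7%). Protein-coding genes of at least 1 TPM came closer to the members. Of them, 12.4% were higher and 8.83% lower at an unadjusted p under 0.05. Groups lay apart upward in 17.7% of them and downward in 12.7%. The SE of a member's log2 fold change ran from 0.06 to 0.23, and 37 of the 45 members had a 95% interval that lay wholly between -0.5 and 0.5. The median over the members, as a log2 difference from the mean of the controls, was -0.02, 0.02 and 0.03 in the controls and 0.13, 0.16 and 0.05 in MYCN-induced replicates 1, 2 and 3. MYCN-induced replicate 3 therefore lay close to control replicate 3 in this median, while the other MYCN-induced libraries lay above every control.

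**Figure D1:**
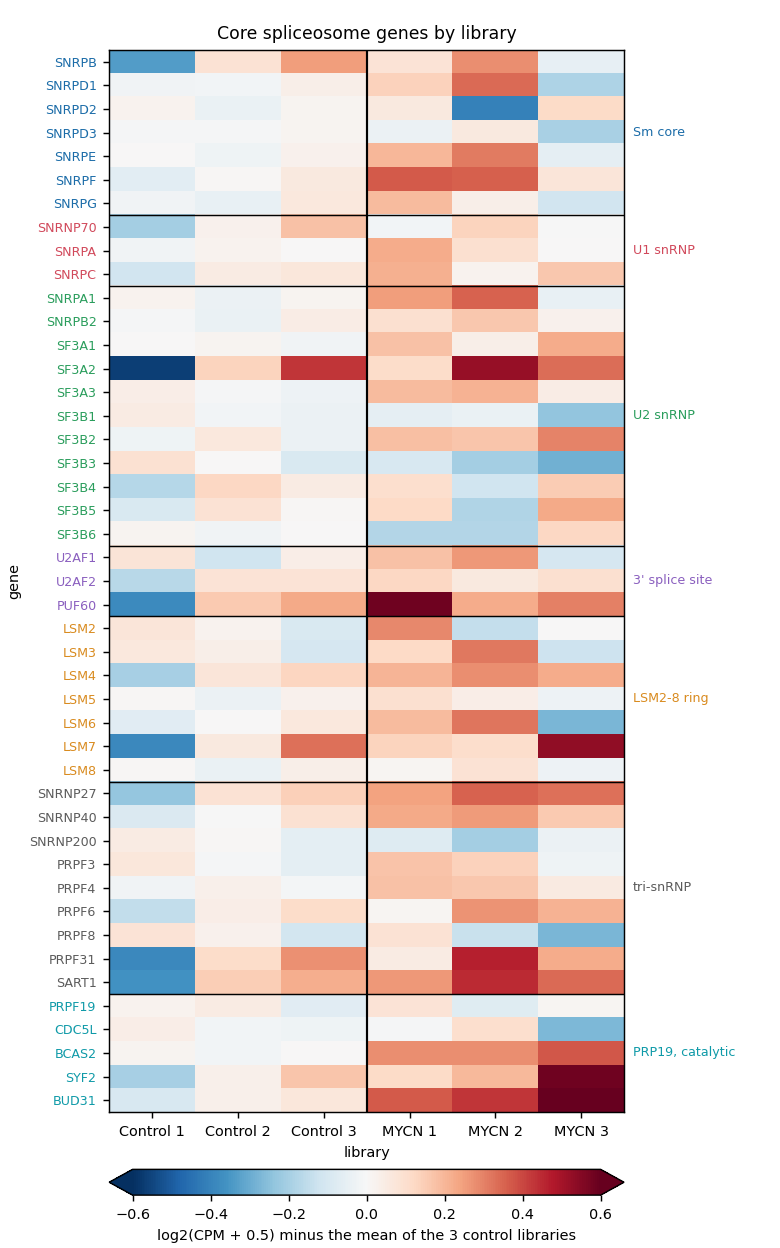
Each row is a core spliceosome gene, grouped by role, and each column a library; colour gives log2(CPM + 0.5) minus the mean of the 3 control libraries, with values past 0.6 in either direction drawn in the end colours. BUD31, SYF2 and BCAS2 are high in MYCN-induced replicate 3, in which SNRPD1, LSM6 and CDC5L are low, and control replicate 1 is low for SNRPB, SF3A2, PUF60, LSM7, PRPF31 and SART1.

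The PRP19 and catalytic step members held the 2 smallest p-values of the set. BUD31, a small zinc-binding protein that sits near the catalytic core, is at chromosome 7, 99408641 to 99419616 on the plus strand (GRCh38). It measured 48.4, 52.8 and 54.3 CPM in control replicates 1, 2 and 3 and 67.0, 69.8 and 87.0 CPM in MYCN-induced replicates 1, 2 and 3. Every MYCN-induced library was above every control, and MYCN-induced replicate 3 was the highest of the 6. The mean went from 51.9 ± 3.06 to 74.6 ± 10.8 CPM (SD, n = 3 each). This was a log2 fold change of 0.53 ± 0.11 (SE; 95% interval 0.27 to 0.78; adjusted p = 0.045 by edgeR), which ranked BUD31 at 873 among all genes by p.

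The call on BUD31 was close to the threshold. Over 15 alternative settings its log2 fold change stayed between 0.41 and 0.60 and its adjusted p ran from 0.0028 to 0.197, past the threshold in 9 of them. It was lost when any library but MYCN-induced replicate 3 was left out (adjusted p 0.159, 0.197 and 0.141 without control replicates 1, 2 and 3, and 0.0823 and 0.0718 without MYCN-induced replicates 1 and 2), and under a filter of at least 100 counts per library (0.0559), and kept without MYCN-induced replicate 3, where the log2 fold change was 0.41 (adjusted p = 0.020). A gene on the opposite strand, PTCD1, a mitochondrial RNA-binding protein, overlaps 919 of the 2374 exon bases of BUD31 (38.7%), and the headers of the count files name no strand option, although the methods name one. Counted without strand, the reads of both genes over these bases cannot be told apart. PTCD1 measured 50.3, 53.8 and 55.8 CPM in the controls and 60.9, 60.7 and 64.5 CPM in the MYCN-induced libraries, a log2 fold change of 0.22 ± 0.07 (SE, adjusted p = 0.145), smaller than that of BUD31. The part of the shared bases in the BUD31 value was not tested.

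BCAS2, a core subunit of the PRP19 complex, differed by little within each group. It measured 31.1, 30.5 and 30.8 CPM in the controls and 37.5, 37.4 and 40.0 CPM in the MYCN-induced libraries. The groups did not overlap, and the log2 fold change was 0.31 ± 0.07 (SE; interval 0.16 to 0.47), with an adjusted p of 0.051 by edgeR, just outside the threshold. It was 0.0022 by DESeq2, 0.040 among protein-coding genes alone and 0.042 among genes with at least 100 counts in every library, and over the 15 settings the adjusted p ran from 0.0022 to 0.277. In counts simulated with 200 genes changed 2-fold, DESeq2 called 63 unchanged genes and edgeR 18. The 3 listed pseudogenes, 2 of them with counts, held 2.51% as many counts as BCAS2.

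SYF2, which joins the spliceosome with the PRP19-related proteins, rested on 1 library. It measured 41.3, 48.5 and 53.3 CPM in the controls and 51.4, 54.3 and 71.3 CPM in the MYCN-induced libraries. The groups overlapped, since control replicate 3 was above MYCN-induced replicate 1, and the log2 fold change of 0.31 ± 0.14 (SE, adjusted p = 0.301) was 0.16 without MYCN-induced replicate 3. PRPF19, the ubiquitin ligase that gives the complex its name, had a log2 fold change of 0.01 (interval -0.15 to 0.17) that was below 0 under library size only and upper-quartile scaling, and CDC5L, a DNA- and RNA-binding scaffold of the complex, one of -0.05 (interval -0.28 to 0.18). The median of these 5 genes was 0.31, and 0.16 without MYCN-induced replicate 3, where it moved most.

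**Figure D2:**
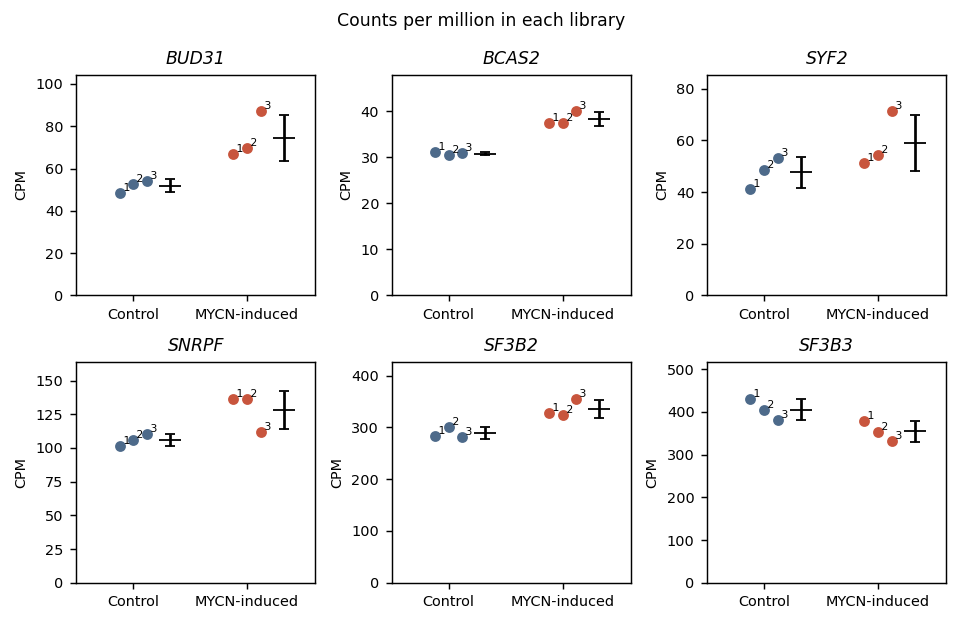
CPM of 6 core spliceosome genes in each library (points, numbered by replicate) with the mean and SD of each group (bars, n = 3), on axes that start at 0. BUD31 and BCAS2 have separate groups, SYF2 overlaps, SNRPF is lowest among MYCN-induced libraries in replicate 3, and SF3B3 is lower in all 3 MYCN-induced libraries.

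MYC-family proteins bind E-boxes, of which CACGTG is the canonical form and CACGCG a variant, so the promoters of the members were read for both. RefSeq promoter windows (GRCh38.p14, 250 bases before to 50 after a start) were at hand for 40 of the 45 genes, in 47 windows. CACGTG, which reads the same on both strands, was in 2 of the 47 windows, beside 2548 of all 35116 windows (7.26%). Both are windows of SF3B1 and hold the same site, seen from 2 starts. CACGCG, or CGCGTG on the other strand, was in 12 of the 47 windows, from 11 member genes, beside 4014 of all 35116 windows (11.4%). The SF3B1 site is again counted from 2 starts. The 11 are BUD31, LSM4, LSM7, LSM8, PRPF6, SF3A2, SF3B1, SNRNP70, SNRPA, SNRPB2 and U2AF1. Of these only BUD31 was called, and their log2 fold changes ran from -0.11 (SF3B1) to 0.53 (BUD31). The windows of all genes were not matched to the members by level, and a difference in share was not tested. No site can be counted under both motifs. The sites are shown for BUD31, the member called higher, for SF3B1, the only one of the 40 with the canonical form, and for LSM4, the LSM gene with the smallest p. Capitals mark the motif, and each is written 5′ to 3′ on the strand of the gene:
BUD31, CACGCG on the other strand: cgttcgggaagaCGCGTGgccctgcctgcc
SF3B1, canonical: tggcagttctgtCACGTGtcacccgacgga
SF3B1, variant: tcccgtttggcgCACGCGcagagtgcagcc
LSM4, CACGCG on the other strand: cccgccctactcCGCGTGgattggttgacc

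The BUD31 motif starts 173 bases before the RefSeq start. Its printed stretch (chr7:99408784-99408813, plus strand) lies in an exon of BUD31 in the annotation behind the counts, which begins the gene further upstream. The printed stretches of SF3B1 (chr2:197435119-197435148 and chr2:197435083-197435112, minus strand) and of LSM4 (chr19:18323162-18323191, minus strand) lie in no annotated exon. BCAS2 and SNRPF held neither motif in these windows. These matches describe letters only, and binding was not measured in these libraries. SF3B1, with both motifs, had a log2 fold change below 0.

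The Sm core is the ring of SNRPB, SNRPD1, SNRPD2, SNRPD3, SNRPE, SNRPF and SNRPG that wraps the RNA of the U1, U2, U4 and U5 particles. None of the 7 passed the test in either direction. Their log2 fold changes ran from -0.06 to 0.27 with a median of 0.09, and 5 were above 0. SNRPF measured 101.1, 106.2 and 110.4 CPM in the controls and 136.5, 135.9 and 111.5 CPM in the MYCN-induced libraries. MYCN-induced replicate 3 was barely above the highest control, and the log2 fold change was 0.27 ± 0.09 (SE, adjusted p = 0.162), or 0.37 without that library (adjusted p = 0.016).

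SNRPE showed the same layout more strongly, with 108.6, 106.5 and 110.2 CPM in the controls and 124.8, 134.8 and 104.4 CPM in the MYCN-induced libraries. MYCN-induced replicate 3 was the lowest of the 6, and the log2 fold change went from 0.16 (adjusted p = 0.424) to 0.27 (adjusted p = 0.031) without it. SNRPD1 and SNRPD3, which each pair with another Sm protein before the ring closes on the RNA, were also lowest in MYCN-induced replicate 3, at 78.4 and 223.0 CPM against 87.9 to 91.2 and 253.6 to 257.9 CPM in the controls. SNRPD2 was instead lowest in MYCN-induced replicate 2, at 109.2 CPM against 141.2 to 157.3 CPM in the other 5 libraries. SNRPB was lowest in control replicate 1, at 67.9 CPM against 82.9 to 104.2 CPM in the other 5. Reads may be shared with copies or neighbours for several of these genes: the 20 listed SNRPG pseudogenes held 19.06% as many counts as SNRPG, and same-strand genes overlap 20.0% of the exon bases of SNRPB and 14.0% of those of SNRPD3.

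The U1-specific proteins, SNRNP70, SNRPA and SNRPC, recognize the U1 RNA or steady its contact with the 5′ splice site, and none passed the test. Their log2 fold changes were 0.03, 0.11 and 0.13. SNRPC had the smallest p of them, with 76.2, 85.4 and 86.6 CPM in the controls and 95.7, 83.8 and 92.3 CPM in the MYCN-induced libraries. The groups overlapped through MYCN-induced replicate 2 (log2 fold change 0.13 ± 0.08 SE, adjusted p = 0.450).

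The 11 U2 proteins were split, 8 above 0 and 3 below, and none passed the test. SF3B2, a subunit of the SF3B complex that grips the branch point region, measured 283.9, 301.7 and 281.5 CPM in the controls and 327.6, 324.6 and 355.5 CPM in the MYCN-induced libraries. The groups did not overlap (log2 fold change 0.22 ± 0.07 SE, adjusted p = 0.134). SF3B3, which binds SF3B1 within the same complex, went the other way, with 431.0, 405.3 and 380.4 CPM in the controls and 379.4, 351.8 and 331.8 CPM in the MYCN-induced libraries. MYCN-induced replicate 1 lay just under control replicate 3, and the log2 fold change was -0.19 ± 0.08 (SE, adjusted p = 0.233).

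SF3B1, the large subunit that holds the branch point adenosine, measured 523.9, 501.9 and 495.3 CPM in the controls and 487.5, 492.5 and 429.8 CPM in the MYCN-induced libraries. The groups were separate by a small margin, the log2 fold change was -0.11 ± 0.07 (SE, adjusted p = 0.490), and it was -0.04 without MYCN-induced replicate 3. SF3B6, which touches the branch point adenosine, was lower in MYCN-induced replicates 1 and 2 (100.1 and 100.3 CPM) than in the controls (111.6 to 114.6 CPM) and higher in replicate 3 (123.6 CPM), with a log2 fold change of -0.07, or -0.17 without replicate 3 (adjusted p = 0.067). Thus subunits of the same SF3B complex lay on both sides of 0, from -0.19 to 0.22, although only at unadjusted p-values.

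SNRPA1 and SF3A3 were past the threshold only without MYCN-induced replicate 3. SNRPA1, the U2 A′ protein, measured 48.4, 46.6 and 48.3 CPM in the controls and 57.0, 61.1 and 46.3 CPM in the MYCN-induced libraries, with a log2 fold change of 0.20 (adjusted p = 0.360), or 0.32 without the third (adjusted p = 0.020). SF3A3, a subunit of the SF3A complex that links U2 to SF3B, measured 157.5, 152.7 and 150.2 CPM in the controls and 175.0, 177.2 and 158.4 CPM in the MYCN-induced libraries, with a log2 fold change of 0.15 (adjusted p = 0.287), or 0.21 without it (adjusted p = 0.038). SF3A2, its partner, had the largest SE of all members: control replicates 1, 2 and 3 measured 27.7, 45.2 and 55.6 CPM and the MYCN-induced libraries 44.5, 59.4 and 52.1 CPM (0.28 ± 0.23 SE, adjusted p = 0.581). The other U2 proteins, SNRPB2, SF3A1, SF3B4 and SF3B5, had log2 fold changes between 0.04 and 0.15.

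Among the factors of the 3′ splice site, U2AF2 binds the polypyrimidine tract, U2AF1 reads the AG dinucleotide and PUF60 acts beside U2AF2, and none passed the test. PUF60 had the second largest log2 fold change of all members, 0.36 ± 0.17 (SE, adjusted p = 0.309). It measured 27.5, 40.2 and 42.2 CPM in the controls and 54.2, 42.1 and 44.5 CPM in the MYCN-induced libraries. The low value of control replicate 1 and the high value of MYCN-induced replicate 1 set this difference, which was 0.18 without control replicate 1. U2AF1 and U2AF2 were at 0.12 and 0.09. U2AF1 has a near-identical copy, U2AF1L5. Reads alike in both copies are left out when only unique alignments are counted, as the headers have it. Under the options named in the methods they would be counted in fractions. Its level is uncertain either way.

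The LSM2-8 ring, a set of proteins that hold the end of the U6 RNA in the nucleus, had log2 fold changes from 0.02 to 0.25, and none passed the test. All 7 were above 0 with every library under TMM scaling. LSM8 was below 0 under library size only or upper-quartile scaling, and without control replicate 2 or MYCN-induced replicate 2. LSM2 was below 0 without MYCN-induced replicate 1, and LSM6 without MYCN-induced replicate 2. LSM4 measured 44.6, 53.8 and 56.1 CPM in the controls and 59.2, 62.2 and 59.9 CPM in the MYCN-induced libraries. The groups did not overlap (0.23 ± 0.09 SE, adjusted p = 0.241), and the log2 fold change was 0.13 without control replicate 1. LSM8, the subunit that keeps the ring nuclear, was nearly level, at 0.02 with an interval of -0.13 to 0.17. LSM6 and LSM3 were lowest of all 6 libraries in MYCN-induced replicate 3, at 29.3 and 29.4 CPM, and highest in MYCN-induced replicate 2, at 44.6 and 40.2 CPM. LSM7 differed from both, highest in MYCN-induced replicate 3 at 29.97 CPM and lowest in control replicate 1 at 15.6 CPM.

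With every library, the 9 tri-snRNP proteins had the second highest median of the groups, 0.16, with 7 above 0 and none past the test. This rank was not stable. The factors of the 3′ splice site had the higher median without control replicate 1 (0.155 against 0.115) and without MYCN-induced replicate 3 (0.229 against 0.175). SNRNP40, a U5 protein that contacts PRPF8, measured 46.9, 49.7 and 53.1 CPM in the controls and 58.4, 59.6 and 55.6 CPM in the MYCN-induced libraries. SNRNP27, a small tri-snRNP protein, measured 26.6, 33.4 and 34.7 CPM in the controls and 37.2, 40.2 and 39.6 CPM in the MYCN-induced libraries. Neither gene overlapped between groups, with log2 fold changes of 0.21 ± 0.07 (SE, adjusted p = 0.167) and 0.30 ± 0.11 (SE, adjusted p = 0.184), and 12.5% of the exon bases of SNRNP27 belong to MXD1 as well.

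SART1, which bridges the tri-snRNP to the forming spliceosome, measured 47.8, 68.4 and 71.7 CPM in the controls and 74.0, 84.3 and 78.2 CPM in the MYCN-induced libraries. The groups were separate, with control replicate 1 far below the rest, and the log2 fold change of 0.33 ± 0.15 (SE, adjusted p = 0.276) was 0.17 without that library. PRPF8, the scaffold of the catalytic core, and SNRNP200, the helicase that unwinds U4 from U6, were the 2 tri-snRNP members below 0. SNRNP200 measured 626.8, 609.8 and 582.4 CPM in the controls and 575.1, 526.0 and 590.9 CPM in the MYCN-induced libraries (-0.10 ± 0.07 SE, adjusted p = 0.492). PRPF8 measured 312.9, 301.4 and 273.9 CPM in the controls and 314.4, 269.6 and 244.7 CPM in the MYCN-induced libraries (-0.10 ± 0.10 SE, adjusted p = 0.660), and it was -0.01 without MYCN-induced replicate 3. Both genes overlapped between groups.

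PRPF3, PRPF4 and PRPF6, which hold U4 to U6 or bridge them to U5, had log2 fold changes of 0.10, 0.13 and 0.16. PRPF31, which binds the U4 RNA and is known for its link to inherited retinal degeneration, had 0.23 ± 0.18 (SE, adjusted p = 0.542). Opposite-strand genes, PRPF31-AS1 and TFPT, overlap 31.3% of the exon bases of PRPF31, so without strand its value is uncertain.

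**Figure D3:**
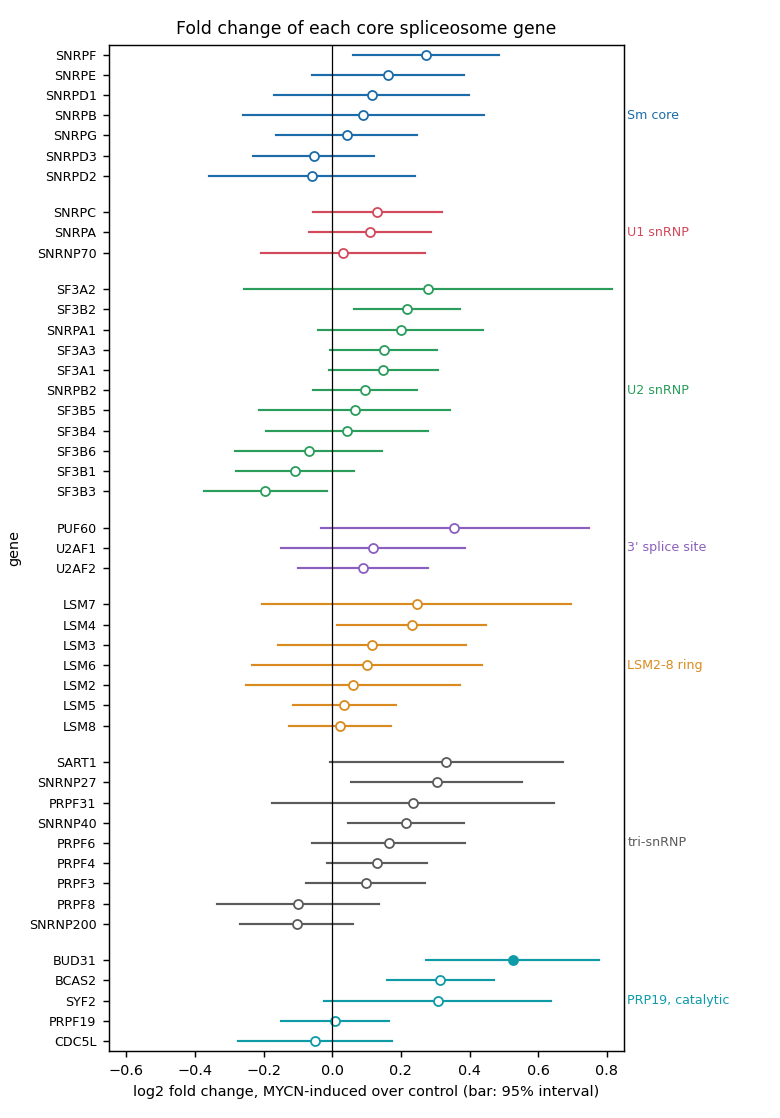
Log2 fold change of each core spliceosome gene, MYCN-induced over control, with its 95% interval, grouped by role; the filled point is the member with an adjusted p under 0.05. Only BUD31, at 0.53, is filled, and the intervals of the lower members, SF3B3 excepted, cross 0.

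In 21 members (46.7%, beside 20.3% of all genes), MYCN-induced replicates 1 and 2 were both above every control, and in 10 of the 21 (47.6%, beside 43.3% of such genes overall) replicate 3 was not. MYCN-induced replicate 3 was the lowest library of the 6 in 11 members (24.4%, beside 27.0% of all genes) and the highest in 10 (22.2%, beside 25.0%), shares near those of all genes, and MYCN-induced replicate 2 was the highest in 19 (42.2%, beside 19.0%). Without MYCN-induced replicate 3, 6 of 45 members were called higher (13.3%, beside 3.68% of 28797 genes), namely BUD31, BCAS2, SNRPF, SNRPE, SNRPA1 and SF3A3, and 0 were called lower (beside 4.44%). Of the 11789 protein-coding genes of at least 1 TPM, that fit called 799 higher and 617 lower, so the all-gene share for higher understates this background. The median of the members was then 0.16.

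Other gene groups moved with that library. Over 22 S and G2/M phase genes, the same per-library median was 0.15 and 0.15 in MYCN-induced replicates 1 and 2 and -0.41 in replicate 3, and the proliferation marker MKI67 measured 597.6, 614.0 and 286.5 CPM there. Over 13 tested genes of the integrated stress response it was 0.90, 0.43 and 2.31. BUD31, BCAS2 and SYF2 were among the 10 members highest in replicate 3, and the 11 members lowest there were SNRPD1, SNRPD3, SNRPE, SNRPG, SNRPA1, SF3B1, SF3B3, LSM3, LSM6, PRPF8 and CDC5L. The part of proliferation or stress in these values was not tested.

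Control replicate 1 was low for members with GC-rich exons, as it was for GC-rich genes overall. It was the lowest of the 6 libraries in 19 members (42.2%, beside 17.6% of all genes), 11 of them among the 12 members with an exon GC content of 55% or more, where it was lowest in 44.3% of all genes. In those 12 the median log2 ratio of control replicate 1 to the mean of the other controls was -0.41, beside 0.01 in the 33 members of lower GC, and beside -0.19 and 0.06 over all genes tested in the same classes. Across the 45 members, which share libraries, the Pearson correlation of GC content with this ratio was -0.61, given as a description. The median log2 fold change of the 12 GC-rich members was 0.20 with every library and 0.06 without control replicate 1, and that of the other 33 was 0.10 and 0.10. With a GC correction fitted per library, chosen after the data were seen, these medians were 0.21 and 0.11, and BUD31 was still the 1 member called (adjusted p = 0.019).

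**Figure D4:**
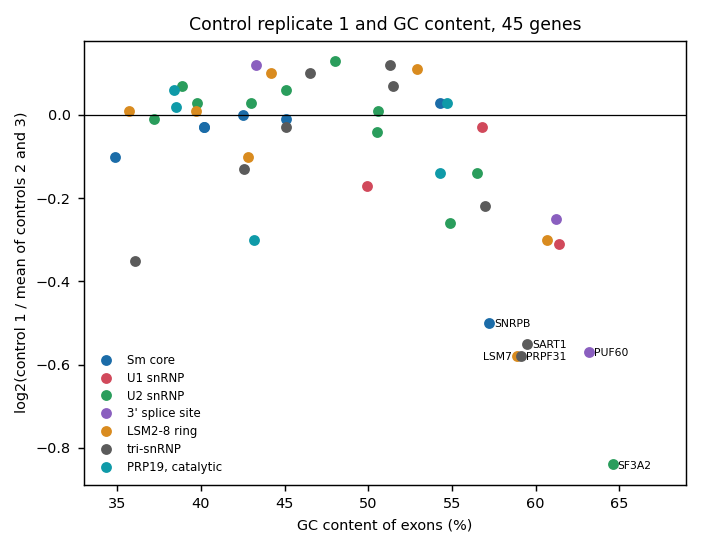
Each point is a core spliceosome gene: exon GC content (%) against the log2 ratio of control replicate 1 to the mean of controls 2 and 3, coloured by role. Below 55% GC the points lie between -0.35 and 0.13, and SF3A2, at 64.6% GC, is lowest at -0.84.

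Levels per length were compared in TPM. SNRPD2 was the most abundant member, at 165.4 ± 10.04 TPM in controls and 156.8 ± 18.8 TPM in MYCN-induced libraries (SD, n = 3 each), and SF3B6 lay beside it at 165.4 ± 9.63 and 156.4 ± 6.88 TPM, within that spread. SF3B4, SNRPB, SNRPC and SNRPD3 followed, with means over all libraries from 105.6 to 147.6 TPM. BUD31 and BCAS2 lay near the middle of the set, at 35.8 ± 0.51 and 39.2 ± 2.25 TPM in controls and 51.2 ± 3.32 and 48.7 ± 4.62 TPM in MYCN-induced libraries, beside a median of 42.8 TPM over the 45 genes. Thus BUD31 went from below BCAS2 to slightly above it, by less than the spread between MYCN-induced libraries.

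Subunits that sit in the particle at equal number differed in RNA level. In the Sm ring, SNRPD1 measured 30.1 ± 1.06 TPM and SNRPD2 165.4 TPM in controls. The LSM ring ran from 7.34 TPM for LSM8 to 32.1 TPM for LSM4, beside 31.6 TPM for SNRPD1 to 161.1 TPM for SNRPD2 in the Sm ring, so that only LSM4 and SNRPD1 met. U2AF1 was the lowest member at 2.87 TPM. TPM divide by all annotated exon bases, 11095 for U2AF1 and 17309 for LSM8, so genes with long annotated exons that are rarely used read low on this scale.

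**Figure D5:**
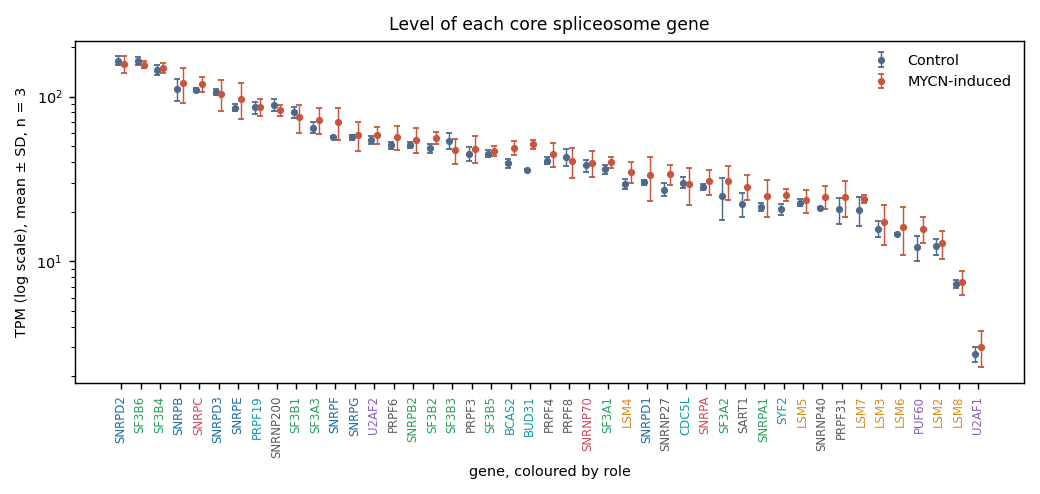
TPM of each core spliceosome gene (log axis) as mean ± SD over 3 control and 3 MYCN-induced libraries, ordered by level and coloured by role. Levels span 2.87 TPM (U2AF1) to 161.1 TPM (SNRPD2).

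Among 125 other spliceosome genes, 122 were tested, 0 were called higher and 1 was called lower, beside 1.02% and 2.38% of all genes. At an unadjusted p under 0.05, 17 were higher (13.9%) and 6 lower (4.92%), beside 8.13% and 10.6% of all genes. For protein-coding genes of at least 1 TPM these shares were 12.4% and 8.83%. DESeq2 called 4 of the other spliceosome genes higher and 3 lower, beside 3.11% and 4.12% of all genes. The 122 had a median log2 fold change of 0.06, with 83 above 0, beside 49.9% of all genes and 58.5% of those protein-coding genes. The gene that fell was RNU6ATAC, the U6atac RNA of the minor spliceosome, which removes a rare class of introns. It measured 1.003, 0.993 and 0.92 CPM in the controls and 0.42, 0.47 and 0.46 CPM in the MYCN-induced libraries (log2 fold change -1.10 ± 0.16 SE, adjusted p = 0.015), on 27 to 105 counts per library, and it lost the call without MYCN-induced replicate 1 (adjusted p = 0.0595) or without any 1 control (at least 0.0645).

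The other lists had no gene past the threshold, and each is given by its gene of smallest p. SNW1, of 26 further PRP19 and catalytic step genes (22 above 0), was at 0.21 on the log2 scale (adjusted p = 0.127). U2SURP, of 17 genes associated with U1 and U2 (12 above 0), had 0.18 (adjusted p = 0.207), and CD2BP2, of 11 further U5 and tri-snRNP genes (6 above 0), had -0.13 (adjusted p = 0.281). ZCRB1, of 11 minor spliceosome proteins (5 above 0), had 0.25 (adjusted p = 0.109), and MAGOH, of 9 exon junction complex genes (8 above 0), had 0.19 (adjusted p = 0.175).

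The 2 lists that bear most on the Sm ring were its paralogs and the factors that assemble snRNPs. SNRPN, the Sm protein that neurons use in place of SNRPB and whose transcript also carries SNURF, measured 13.9, 13.8 and 13.8 CPM in the controls and 20.8, 16.2 and 24.6 CPM in the MYCN-induced libraries, with separate groups and a log2 fold change of 0.57 (adjusted p = 0.084). Of the 7 paralogs, 6 were above 0. STRAP, a subunit of the SMN complex that loads Sm rings onto RNA, measured 183.0, 186.3 and 194.6 CPM in the controls and 213.1, 246.1 and 235.3 CPM in the MYCN-induced libraries, again with separate groups (0.30, adjusted p = 0.071), and 14 of the 21 assembly genes were above 0. Neither passed the test. Of 23 listed spliceosomal RNAs, 20 were tested and 10 were above 0 (beside 49.9% of all genes). At an unadjusted p under 0.05, 4 were lower (20%, beside 10.6% of all genes) and 0 higher (beside 8.13%). Several of these RNAs are listed in more than 1 copy. Reads alike in copies are left out when only unique alignments are counted, as the headers have it, so these levels are uncertain.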

How the data were processed

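Total RNA libraries of SK-N-AS cells (3 control, 3 MYCN-induced) were grouped by their titles. The authors deposited estimated counts per gene: per the file headers, featureCounts v1.6.4 counted uniquely aligned STAR read pairs over exons, shared pairs between overlapping genes in fractions and set no strand option. The submitters' processing notes name STAR 2.7.1a, featureCounts 1.5.1 and GRCh38. The methods name a strand option and the fractional counting of reads that align to several places. This conflict was not settled, so the values are used as deposited. Between 31.9% and 33.4% of values above 0 were not whole. Of 60651 identifiers, 99.72% matched GENCODE release 44, which gave the symbols.

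Estimated counts were rounded. A gene was kept if 3 or more libraries held 10 or more counts, and edgeR 4.0.16 (R 4.3.3) compared the groups by quasi-likelihood after TMM scaling, with no block for the replicate number, adjusted over all genes, at 0.05. The SE is the log2 fold change divided by the square root of F, and intervals are 95%. CPM are TMM-scaled, and TPM use the exon bases of the files. Totals ran from 64500589 to 102249336 counts per library and members from 632 to 65630 counts, so the spread between libraries sets the intervals. The study calls its replicates biologically independent experiments, and replicates differed by more than sampling noise (chi-square per gene 12.1 to 145.6). On simulated counts for this comparison (28628 genes, 200 of them changed 2-fold), edgeR called 83.5% of the changed genes and 18 others. DESeq2 called 93.5% of the changed genes and 63 others, so its additional calls came with more false ones there.

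The members and lists were chosen with earlier results of these data known. Named are MYCN, members past the threshold, the 5 largest log2 fold changes in each direction, the smallest p of each role, members called without MYCN-induced replicate 3, members with shared reads, and for each other list its genes past the threshold or its smallest p. Alternatives were library size only, upper-quartile scaling, DESeq2 1.42.0, a fit of all genes unfiltered, a filter of 100 or more counts throughout, a block for the replicate number, each library left out, and thresholds of 0.01 and 0.1. Protein-coding genes only and the GC corrections were added after the data were seen.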

Additional observations from a re-analysis of the deposited data

How the results depend on the processing

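No core spliceosome gene was called lower under any setting, and the direction of MYCN and of the 18 members named for their size or p held under all 15 refits. Those 18 were picked by values of these same libraries, a choice that itself favours a steady sign. Of the other 27 members, 13 changed sign under 1 or more refits, LSM8 and PRPF19 under other scalings and the rest only when a library was left out. Calls on single genes depended on the setting, since BUD31 lay close to the threshold. DESeq2 gave 904 genes higher and 1199 lower, 2 members higher, and 4 other spliceosome genes higher and 3 lower. Without a count filter 470 genes and 1 other spliceosome gene were higher. At least 100 counts in every library left 227 genes higher (1.39% of 16341) and 404 lower, and BCAS2 took the place of BUD31 (adjusted p = 0.0559). This filter removed RNU6ATAC (27 to 105 counts), the other spliceosome gene called lower, so 0 of those genes lower was fixed beforehand. Protein-coding genes alone gave 230 genes higher (1.55% of 14865) and 430 lower, with 2 members higher (4.44%). That fit also left out RNU6ATAC, so its 0 other spliceosome genes lower was likewise fixed beforehand. The GC correction gave 596 genes and 1 other spliceosome gene higher. Both the protein-coding fit and the GC correction were chosen after seeing the data. At 0.01, 36 genes were higher and 145 lower, with 0 members and 0 other spliceosome genes, and at 0.1, 706 and 1242, with 2 members higher and 3 other spliceosome genes each way. Leaving out 1 library gave 18 to 1060 genes higher and 72 to 1279 lower, 0 to 6 members higher, 0 to 7 other spliceosome genes higher and 0 to 2 lower. The most calls came without MYCN-induced replicate 3 and the fewest genes without control replicate 2, and the smaller tests hold fewer samples. The cause of the other shifts was not tested. Library size only and upper-quartile scaling left 35 of 45 members above 0, with medians of 0.09 for both and a median of all genes of -0.03. Replicates of the 2 groups share numbers, but same-numbered libraries deviated together in only part of the cases (correlations 0.22, -0.02 and 0.07), and 3 of 6 libraries lay closest to their own number, so the numbers were not taken as pairs. With the replicate block, 265 genes were called higher and 575 lower, and BUD31 was called (0.52, adjusted p = 0.031), with BCAS2 at 0.0964. In simulated counts edgeR called 83.5% of 2-fold changes, and smaller changes were not simulated.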
